A study of Capra hircus with 6 samples.

Results

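The genes described here encode proteins of the mitochondrial respiratory chain from the nuclear genome. Members were the loci of the deposited gene table that carry 1 gene name and whose name belongs to the NDUF, SDH, UQCR, CYC1, nuclear COX or ATP5 families. The rule found 65 of 26938 loci, all of them with NDUF, SDH or ATP5 names. It used names and no measured value, but was chosen with earlier results of these data known. They comprised 35 subunits of complex I, 7 assembly factors of complex I (the NDUFAF genes), all 4 subunits of complex II, NDUFA4, which is now counted to complex IV, its paralog NDUFA4L2, 15 structural subunits of complex V, and ATP5S and ATP5SL. The UQCR genes, CYC1 and the nuclear COX genes were not analysed here, so complex III is not described and complex IV only through NDUFA4.

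Skin was taken by punch biopsy from the flank of 6 female Changthangi Pashmina goats (spelled Chanthangi in the labels), all aged 26 months and with no treatment named beyond local anaesthesia. There were 2 goats with a white coat, 2 with a brown coat and 2 with a black coat by the sample labels, whereas the design text of the series speaks of grey in place of brown and of 6 goats per colour. Poly-A RNA was sequenced, and the authors deposited 1 FPKM (a read density corrected for transcript length and library depth) per locus and colour, which combines the 2 goats. No value per goat was used, so no difference below could be set against the spread between goats, no error or test is given, and the depth behind a value is unknown. Each colour enters 2 of the 3 comparisons, so these share samples.

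The respiratory chain lies in the inner mitochondrial membrane. Complexes I and II pass electrons from NADH and succinate to ubiquinone, complexes III and IV pass them on to oxygen, and complex V uses the proton gradient that results to make ATP. In skin, the growing hair follicle and the epidermis are fed by both glycolysis and respiration, and melanocytes, keratinocytes, fibroblasts, vessels and glands all carry these genes. A lower FPKM in a biopsy can therefore reflect fewer cells of a type or less RNA per cell, which cannot be told apart.

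White skin had the lowest level for most of the genes. White was the lowest of the 3 colours in 55 of the 65 members, black in 9 and brown in 1. There were 13659 loci with 1 name and a mean FPKM of at least 1. White was lowest in 25.7% of these loci, black in 56.1% and brown in 18.2%. Brown was the highest colour in 38 members, black in 24 and white in 3, against 36.49%, 16.25% and 47.27% of these loci. The summed FPKM of the members was 7364 in white, 9034 in brown and 8784 in black. The median member stood at 78.2 FPKM in white skin, 99.3 in brown and 83.8 in black, and single members ranged from 1.91 FPKM (NDUFAF2 in black) to 614 FPKM (ATP5E in black). All 65 members passed the filter on low values.

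**Figure D1:**
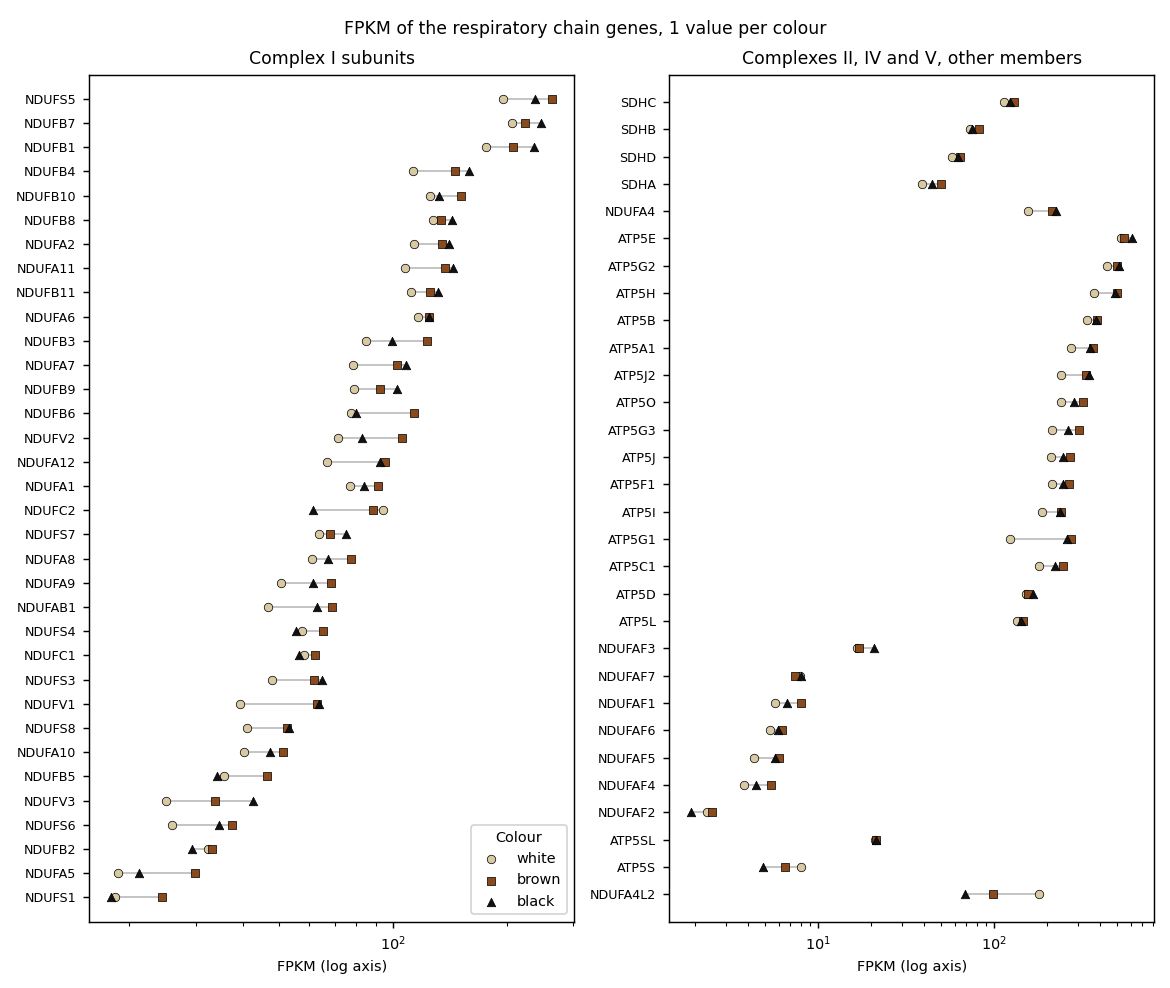
FPKM of the members (log axis, 1 complex I subunit not shown, 1 point per colour, lines joining the colours of a gene), with complex I subunits on the left and the other members on the right. White points lie at the left end in most genes, with NDUFA4L2, NDUFC2 and ATP5S as the genes with white on the right.

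In white over black, 56 members had a log2 ratio below 0, against 31.1% of the 13553 loci compared, and 9 were above. The median of the members was -0.23, while the median of all loci was 0.24. Relative to that median of all loci, 61 of 65 members were lower in white. In brown over white, 61 members had a ratio above 0, against 47.0% of 13556 loci, with a median of 0.35 for the members and -0.03 for all loci. In brown over black, 41 members had a ratio above 0, against 71.4% of loci, and the median was 0.08 beside 0.21 for all loci. Here the direction depended on the scale, since the members' median was -0.13 and 52 of 65 members were below 0 once the median of all loci was subtracted. On the deposited scale brown and black lay closer to each other than either did to white. With each colour divided by its summed FPKM the medians were 0.66 in brown over black and -0.57 in white over black. Black then lay nearer to white. To that sum 1 locus gave 66.1% in white, 37.2% in brown and 60.3% in black. A further scaling, chosen after seeing the data, left that locus out of the sum. The white over black median was then -0.34, with 60 of 65 members below 0. In brown over black 33 members were above 0 and 32 below.

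The differences were small for single genes and alike across them. In 58 members all 3 ratios stayed within 1.5-fold. The middle 50% of the white over black ratios spanned 0.26 on the log2 scale for the members and 0.68 for all loci, and in brown over white 0.30 against 0.56. A narrow span was not particular to the members. In these comparisons it was 0.24 and 0.22 for cytosolic ribosomal proteins and 0.33 and 0.35 for mitochondrial ribosomal proteins. For the citric acid cycle it was 0.42 and 0.31. A locus was called where its FPKM differed by at least 2-fold. In white over black, 1 member was called higher (NDUFA4L2) where 9.5% of loci were, and 1 lower (ATP5G1) where 2.05% were. In brown over white, 1 member was called higher (ATP5G1) where 2.09% of loci were, and 0 lower where 4.09% were. In brown over black, 0 members were called, while 3.1% of loci were called higher and 1.02% lower. The count of calls was therefore near or below the share among all loci. The ratios of the members were small, and mostly of 1 sign in the comparisons with white.

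**Figure D2:**
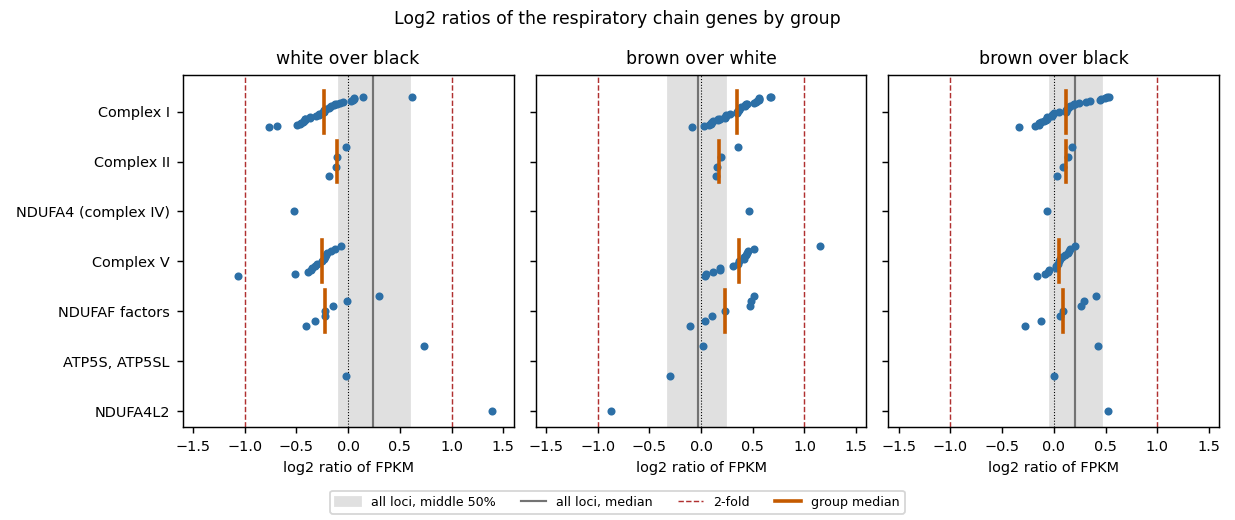
Log2 ratio of FPKM of every member (points) by group in the 3 comparisons, 1 panel each, with the median of each larger group (orange bar), the median and middle 50% of all loci (grey) and the 2-fold lines (dashed). Group medians lie left of 0 in white over black and right of 0 in brown over white, and the points beyond 2-fold are ATP5G1 and NDUFA4L2.

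Complex I takes electrons from NADH at the tip of its matrix arm and hands them to ubiquinone near the membrane. Its 35 subunits had a median of 71.4 FPKM in white against 91.1 in brown and 80.0 in black. White was lowest in 29 of them and black in 6. The median log2 ratio was -0.23 in white over black, 0.35 in brown over white and 0.12 in brown over black, the last turning to -0.09 relative to all loci. The 7 core subunits, which carry the flavin and the iron-sulphur clusters or line the quinone site, had a white over black median of -0.24, and the 28 accessory subunits one of -0.23.

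NDUFV1, the subunit that binds the flavin and oxidises NADH, had 39.4 FPKM in white skin, 62.8 in brown and 63.6 in black. It was thus 1.61-fold lower in white than in black, with a log2 ratio of -0.69, and 4.07% of all loci had a lower ratio. NDUFV2, its iron-sulphur partner, had 71.4 FPKM in white against 105 in brown and 82.8 in black. NDUFV3, an accessory subunit beside them, had 25.1 FPKM in white skin, 33.7 in brown and 42.5 in black. Its white over black ratio of -0.76 was the lowest of complex I, and its brown over black ratio of -0.34 was also the lowest of all members. The median of these 3 NDUFV genes in white over black was -0.69, the lowest of the complex I name families.

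NDUFS1, the largest core subunit, which holds several iron-sulphur clusters, was not lowest in white, unlike NDUFV1 and NDUFV2. It had 18.3 FPKM in white against 24.5 in brown and 17.9 in black, so white and black lay close together and brown was above both. The white over black ratio of NDUFS1 was 0.03, or -0.21 relative to the median of all loci, and that of NDUFV2 was -0.21 as deposited. In brown over black NDUFS1 and NDUFV2 were at 0.45 and 0.35, and NDUFV1 at -0.02. Of the core subunits near the quinone site, NDUFS3, NDUFS7 and NDUFS8 had white over black ratios of -0.43, -0.24 and -0.36.

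Among the accessory subunits, all 11 NDUFA genes, NDUFAB1 included, were lower in white than in black, with ratios from -0.46 to -0.10. NDUFA5, a subunit of the matrix arm, differed most between brown and white, with 18.7 FPKM in white skin, 29.8 in brown and 21.2 in black and a ratio of 0.67. NDUFAB1, the mitochondrial acyl carrier protein, had 46.7 FPKM in white against 68.8 in brown and 62.8 in black. The complex I subunits of highest level were NDUFS5, with 195 FPKM in white skin, 264 in brown and 238 in black, and NDUFB7, with 207 in white, 224 in brown and 247 in black. Both sit at the face of the membrane arm that looks to the intermembrane space, and both were lowest in white.

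Black, not white, was lowest in NDUFC2, NDUFC1, NDUFB2, NDUFB5, NDUFS1 and NDUFS4. The widest gap was in NDUFC2, an accessory subunit of the membrane arm, with 93.9 FPKM in white against 88.6 in brown and 61.2 in black. Its white over black ratio was 0.62, above that of 76.0% of all loci, and its brown over black ratio of 0.53 was the highest among the members. In the other 5 genes the white over black ratio was 0.15 or less, below the median of all loci.

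The NDUFAF genes encode factors that help to build complex I and do not stay in it. Their levels were far below those of the subunits, with medians of 5.37 FPKM in white skin, 6.30 in brown and 5.94 in black. White was lowest in 5 of 7, and the median ratio was -0.22 in white over black and 0.23 in brown over white. NDUFAF5, which modifies the core subunit NDUFS7 in human cells, had 4.34 FPKM in white against 6.01 in brown and 5.76 in black, and a white over black ratio of -0.41, the lowest of the group. NDUFAF4 had 3.80 FPKM in white skin, 5.43 in brown and 4.45 in black, the highest brown over white ratio of the group at 0.51. NDUFAF3, which acts together with NDUFAF4 in human cells, had 16.8 FPKM in white against 17.2 in brown and 21.0 in black. Members of this small group therefore did not share 1 order of colours. NDUFAF2 was the exception in white over black, with 2.35 FPKM in white skin, 2.53 in brown and 1.91 in black. Its locus, like that of NDUFAF1, overlaps another. NDUFAF7, a mitochondrial methyltransferase, had 7.99 FPKM in white against 7.42 in brown and 8.07 in black, the only member with brown lowest. The remaining pair, NDUFAF1 and NDUFAF6, had ratios of -0.22 and -0.15 in white over black.

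Complex II links the chain to the citric acid cycle, where it oxidises succinate. Its 4 genes were lowest in white and highest in brown, but the steps were small. SDHA, the flavoprotein, had 39.1 FPKM in white skin, 50.2 in brown and 44.5 in black. SDHB, the iron-sulphur subunit, had 73.9 FPKM in white against 82.4 in brown and 74.9 in black, so white and black differed by a log2 ratio of only -0.02. The membrane anchors were at 115, 131 and 123 FPKM in white, brown and black for SDHC and at 58.0, 64.1 and 63.0 for SDHD. The median of the 4 genes was -0.11 in white over black and 0.18 in brown over white, nearer to 0 than those of complexes I and V.

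Complex V, the ATP synthase, has a catalytic head and a central stalk in the matrix, a rotating ring of subunit c in the membrane, a peripheral stalk that holds the head, and small membrane subunits that join enzymes into dimers. All 15 structural genes were lowest in white, and brown was highest in 11 and black in 4. Median levels were 216 FPKM in white skin, 306 in brown and 266 in black, the highest of the complexes. The median log2 ratio was -0.26 in white over black and 0.36 in brown over white, and stayed at -0.25 and 0.36 without ATP5G1. In brown over black it was 0.05, turning to -0.16 relative to all loci.

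ATP5A1 and ATP5B encode the alpha and beta subunits of the head, where ATP is made. ATP5A1 had 275 FPKM in white against 366 in brown and 351 in black. ATP5B had 341 FPKM in white skin, 387 in brown and 381 in black. In both genes brown and black lay close together, with white below. Of the central stalk, ATP5E, the epsilon subunit, was the member of highest level, with 530 FPKM in white against 549 in brown and 614 in black. ATP5D, the delta subunit, had 153 FPKM in white skin, 157 in brown and 167 in black. The gamma subunit ATP5C1 had the widest gap of the stalk genes between brown and white, with a ratio of 0.45. The genes of the peripheral stalk, ATP5F1, ATP5H, ATP5J and ATP5O, had white over black ratios from -0.39 to -0.20. Among the membrane subunits, ATP5L was nearly level, with 136 FPKM in white against 147 in brown and 143 in black, whereas ATP5J2 had a white over black ratio of -0.51.

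Subunit c is encoded by 3 genes, ATP5G1, ATP5G2 and ATP5G3, which in mammals give the same mature protein and differ in the peptide that directs it into mitochondria. ATP5G1 had 124 FPKM in white skin, 275 in brown and 260 in black. It was thus 2.09-fold lower in white than in black and 2.21-fold lower in white than in brown, while brown and black differed by a log2 ratio of 0.08. Its white over black ratio of -1.07 was the lowest of the members, with 1.75% of all loci lower still, and its brown over white ratio of 1.15 was the highest. The locus spans positions 36777217 to 36779968 of the sequence that holds the genes of chromosome 19, on the deposited table's own genome build, which is not given in the sources used here. ATP5G2 had 439 FPKM in white against 500 in brown and 517 in black, a white over black ratio of -0.24. ATP5G3 had 214 FPKM in white skin, 306 in brown and 266 in black, a white over black ratio of -0.32.

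Summed over the 3 genes, transcripts of subunit c stood at 777 FPKM in white against 1081 in brown and 1043 in black. ATP5G1 made up 16.0% of this sum in white, 25.5% in brown and 24.9% in black. The share of ATP5G2 was 56.5% in white, 46.2% in brown and 49.5% in black, and that of ATP5G3 stayed between 25.5% and 28.3%. White skin thus had both the lowest sum and the lowest share of ATP5G1. Since the authors let reads with several positions be reported at each, the split among copies of similar sequence is uncertain.

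NDUFA4 and NDUFA4L2 are paralogs. NDUFA4, long named for complex I, is a subunit of complex IV, and NDUFA4L2 is known in human and mouse cells as a gene that hypoxia induces and that lowers complex I activity. NDUFA4 had 157 FPKM in white skin, 216 in brown and 226 in black, a white over black ratio of -0.53. NDUFA4L2 had 182 FPKM in white against 99.3 in brown and 69.2 in black. The paralogs thus lay in opposite orders of colour. NDUFA4L2 was 2.62-fold higher in white than in black, a log2 ratio of 1.39 that exceeded that of 96.4% of all loci, and 1.15 relative to their median. Its brown over white ratio was -0.87 and its brown over black ratio 0.52. The ratio of NDUFA4L2 to NDUFA4 was 1.16 in white, 0.46 in brown and 0.307 in black. The NDUFA4L2 locus spans positions 54645138 to 54652802 of the sequence that holds the genes of chromosome 5 and overlaps SHMT2 there, and use of strand in counting is not given in the sources used here.

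**Figure D3:**
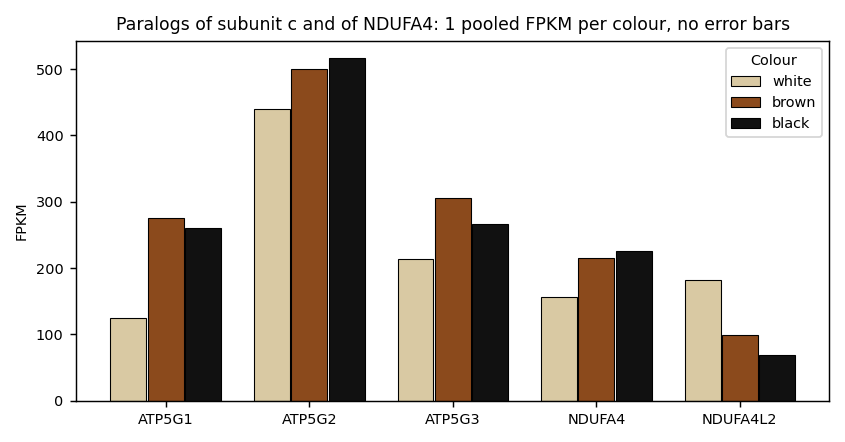
FPKM of the 3 subunit c genes and of NDUFA4 and NDUFA4L2 in white, brown and black skin (bars from 0, 1 pooled value per colour, no error bars). ATP5G1 is at 124 in white against 275 in brown and 260 in black, and NDUFA4L2 is at 182 in white, 99.3 in brown and 69.2 in black, while NDUFA4 is lowest in white.

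ATP5S and ATP5SL carry ATP5 names but are not structural subunits of the synthase. ATP5S, also called factor B, had 8.09 FPKM in white skin, 6.56 in brown and 4.88 in black, the highest ratio in white over black after NDUFA4L2 at 0.73, and its locus overlaps CDKL1. ATP5SL, which serves complex I assembly in human cells, was level, with 21.1 FPKM in white against 21.3 in brown and 21.4 in black. One further gene, NDUFA13, shares a locus with YJEFN3 and so lay outside the rule. That locus had 114 FPKM in white skin, 125 in brown and 127 in black.

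Overlap with another locus was found for 12 members, among them ATP5G2, SDHB and NDUFS8, which were lower in white than in black. The members lay on 25 chromosomes, with 1 on an unplaced sequence, and few were near each other. Pairs within 150 kb included ATP5D and NDUFS7 (123 kb apart, chromosome 7) and NDUFV1 and NDUFS8 (89.4 kb, chromosome 29). The loci were short and highly expressed, with a median span of 8.47 kb against 19.2 kb for all loci and a median level of 90.3 FPKM against 9.35. Ratios moved with span, since all loci of up to 10 kb had a white over black median of 0.06 and those over 50 kb one of 0.54. Relative to loci of similar span the members' white over black median was -0.33 and 61 of 65 were below 0, and relative to loci of similar FPKM it was -0.23 with 60 of 65 below 0. Brown over black changed sign on both scales, at -0.05 and -0.01.

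Other nuclear genes for mitochondrial proteins were set beside the members. The proteins of the mitochondrial ribosome, which translates the subunits encoded in mitochondrial DNA, had medians of -0.21 in white over black and 0.39 in brown over white over 73 genes, close to those of the respiratory chain. Of these, 59 had a white over black ratio below 0 and 64 a brown over white ratio above 0, but only MRPL13 was called, in brown over white, with 36.6 FPKM in white against 73.6 in brown and 61.7 in black. MRPL23, the highest of them, had 191 FPKM in white skin, 202 in brown and 224 in black. For the 14 genes of the citric acid cycle the medians were -0.07 and 0.24, with 0 calls. MDH2, the mitochondrial malate dehydrogenase, was the highest of these and had 102 FPKM in white against 154 in brown and 157 in black. The medians of the 18 further assembly factors measured were -0.04 and 0.13. SDHAF1, which helps to insert iron-sulphur clusters into SDHB, had 6.40 FPKM in white skin, 11.1 in brown and 10.7 in black, and LYRM7, a factor of complex III, was called higher in brown over black at 2.13 FPKM against 1.03. For 14 electron carriers, enzymes of ubiquinone synthesis and synthase partners the medians were -0.01 and 0.20. ATPIF1, the inhibitor of the synthase, had 388 FPKM in white against 622 in brown and 466 in black.

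Genes encoded in mitochondrial DNA did not share 1 direction. The locus with ND1 and ND2 had 4756 FPKM in white skin, 6216 in brown and 5476 in black, and ND6 had 1057, 1444 and 1281. CYTB had 5352 FPKM in white against 5691 in brown and 6564 in black. White was lowest at each of these, but at the locus that joins 9 further genes, COX1 and ND5 among them, it was highest, with 49560 FPKM in white skin, 47390 in brown and 39460 in black.

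The medians of cytosolic ribosomal proteins and of glycolysis were below 0 in white over black as well, but nearer to 0. The 79 cytosolic ribosomal protein genes above the filter had medians of -0.08 in white over black and 0.06 in brown over white, with 0 calls, and 55 of them were below 0 in white over black. RPLP1, the highest of them, had 5591 FPKM in white against 5415 in brown and 5817 in black. For 15 genes of glycolysis the medians were -0.06 and 0.08, with 9 below 0 in white over black. Both white over black medians lay below the 0.24 of all loci. GAPDH had 888 FPKM in white skin, 1131 in brown and 1114 in black, while PFKM, a phosphofructokinase, was called higher in white over black with 25.02 FPKM in white against 15.0 in brown and 11.9 in black, and ALDOC was called lower in brown over white. Regulators of mitochondrial biogenesis had a median over 12 genes of 0.23 in white over black, near that of all loci. In brown over white it was 0.05, and there were 0 calls. In each of these comparisons 7 of the 12 genes were above 0 and 5 below. NRF1, a transcription factor of respiratory genes, had 5.15 FPKM in white skin, 3.73 in brown and 3.23 in black, and TFAM, which packages mitochondrial DNA, had 9.95, 11.3 and 8.10.

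Most of the listed targets of hypoxia signalling lay on the side of NDUFA4L2. The list held no enzyme of glycolysis. In white over black 9 of the 15 glycolysis genes were below 0 and 6 above. The median of the 15 hypoxia targets was 0.82 in white over black, -0.42 in brown over white and 0.40 in brown over black. For all loci these medians were 0.24, -0.03 and 0.21. In white over black 4 genes were called higher (EGLN3, PDK1, BNIP3 and ADM) where 9.5% of loci were. In brown over white 2 were called lower where 4.09% of loci were. HIGD1A and P4HA2 had white over black ratios of -0.24 and -0.17, and 5 of the 15 genes were above 0 in brown over white. EGLN3, an oxygen-sensing hydroxylase, had 46.0 FPKM in white against 22.5 in brown and 17.0 in black. PDK1, a kinase that holds pyruvate back from the citric acid cycle, had 14.1 FPKM in white skin, 9.01 in brown and 6.28 in black. Dividing each colour by its summed FPKM would add 0.92 to every brown over white ratio. This would turn both the median of the hypoxia targets and the ratio of NDUFA4L2 above 0. To that sum 1 locus gave 66.1% in white, 37.2% in brown and 60.3% in black, and without it the division would add 0.03.

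**Figure D4:**
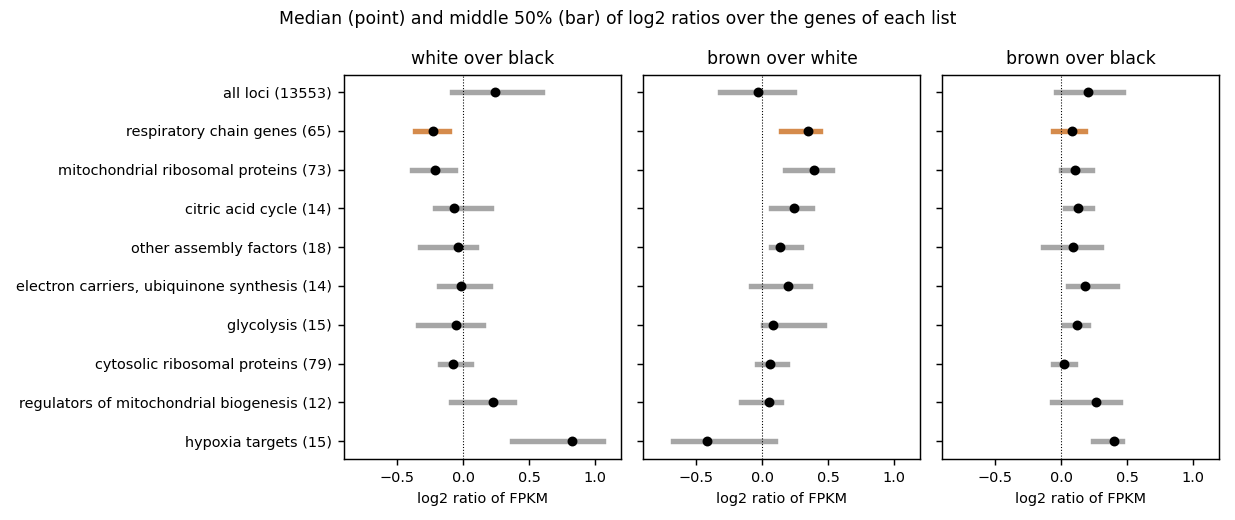
Median (point) and middle 50% (bar) of the log2 ratios of FPKM over the genes of each list, with the number of genes in brackets, for the 3 comparisons. The respiratory chain genes (-0.23 in white over black, 0.35 in brown over white) lie beside the mitochondrial ribosomal proteins (-0.21 and 0.39). The listed hypoxia targets, which include no glycolysis gene, lie opposite (0.82 and -0.42).

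Levels of cell type markers also differed between the colours, though not always alike within a list. Summed over 5 melanocyte markers, FPKM was 11.5 in white, 55.0 in brown and 51.1 in black, with 4 of 5 called lower in white over black (PMEL, TYRP1, DCT and TYR) and MLANA level. The 5 fibroblast markers went the other way, at 2442 in white, 2017 in brown and 1538 in black, all 5 higher in white than in black. The 2 keratinocyte markers found, KRT5 and KRT14, were highest in brown at a sum of 21770, with 17040 in white and 13220 in black. The 7 pericyte markers summed to 191 in white, 160 in brown and 123 in black, with RGS5 and NOTCH3 called higher and HIGD1B lower in white over black. RGS5 had 97.8 FPKM in white against 67.5 in brown and 40.4 in black, and the sum of the other 6 was 93.2 in white, 92.2 in brown and 83.0 in black. Of the 7, only RGS5 and NOTCH3 had the order of colours of NDUFA4L2, which 34.7% of loci had. PDGFRB and ABCC9 were highest in brown, KCNJ8 and HIGD1B highest in black and MCAM lowest in brown. Sums in white, brown and black were 66.3, 58.8 and 49.6 for 3 endothelial markers, 20.3, 13.1 and 13.4 for 2 leukocyte markers, 744, 621 and 747 for 7 smooth muscle markers, 68.2, 51.5 and 59.9 for 7 adipocyte markers, and 475, 270 and 241 for the hair shaft keratin KRT35. Of the 12 skeletal muscle markers found, 10 were under 1 FPKM, and they summed to 8.52 in white, 7.31 in brown and 9.72 in black. Apart from skeletal muscle and 1 adipocyte gene, no marker found was at 0 in any colour, and the part of cell makeup in the members' ratios was not tested.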

How the data were processed

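RNA from the skin of 6 goats (2 per coat colour) was sequenced in paired reads. Per the study's methods, reads were trimmed to a quality above 20 and a length above 25, then placed with TopHat 2.1.0 on an index from Bowtie 2.2.6 (version 2 of Bowtie2 in the submitters' notes). The aligner took 1 mismatch per seed and kept every position of a multi-mapped read. Cufflinks 2.2.1 measured the loci. The authors deposited FPKM from CuffDiff, with 1 value for each locus and colour that combines 2 goats. The library normalization, the build and the depth behind a value are not given in the sources used here. The authors' columns of fold change, test statistic, p and q were not used. 180 loci hold several names and were left out of medians and counts.

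Log2 ratios were taken from the FPKM as deposited, with no pseudocount, for loci with 1 name, a mean FPKM of at least 1 and a value above 0 in both colours (Python 3.11.15, pandas 2.3.3, numpy 2.4.6). A locus was called at 2-fold. Ratio and count steps were tested on simulated data. Alternatives were a pseudocount of 1, other filters, other scalings (20 bins of span or of FPKM), a 1.5-fold limit, structural subunits only and loci that CuffDiff marked as testable, which held all 65 members. Chromosomes were assigned from gene names shared with a RefSeq goat annotation of another or unknown build (lowest share 68%), in which all 65 member names were found. Members and gene lists (9 of pathways, 10 of cell markers) were chosen with earlier results of these data known. Genes are named where called, where highest or most different in their group, as core subunits or as paralogs, and others were named after their values were seen. Values of 1 member are counted in the totals but not reported here.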

Additional observations from a re-analysis of the deposited data

How the results depend on the processing

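No paired analysis was possible because the deposited values are pooled over the goats of a colour, and for the same reason no goat could be left out. With the median of all loci subtracted, the members' median in white over black was -0.47, with loci of similar span -0.33, with sum scaling -0.57, and with sum scaling without the highest locus, chosen after seeing the data, -0.34. In brown over white sum scaling gave 1.27. In brown over black it gave 0.66, while subtracting the median of all loci, of similar span or of similar FPKM reversed the sign, at -0.13, -0.049 and -0.0091. Complex medians in brown over black reversed likewise, in complex I at -0.090, -0.049 and -0.053, in the NDUFAF genes at -0.12, -0.15 and -0.18 and with a mean of at least 10 FPKM at -0.28, in complex II at -0.0932 (all loci) and -0.0745 (span), and in complex V at -0.16 (all loci), -0.0091 (similar FPKM) and -0.034 (sum scaling without the highest locus). Of the counts, members called lower in white over black went from 1 to 2 with the median subtracted and to 3 with sum scaling. Sum scaling raised the members called higher to 55 in brown over white and 7 in brown over black. A 1.5-fold limit gave 3 higher and 3 lower in white over black, and 3 higher and 1 lower in brown over white. Structural subunits only left 0 higher in white over black. Sum scaling adds -0.34 to every white over black ratio and 0.92 to every brown over white ratio, and without the locus of highest FPKM -0.11 and 0.03. For the other changes the cause was not tested. The calls of ATP5G1 and NDUFA4L2 kept their direction under every alternative run. With 1 pooled value per colour of 2 goats and unknown depth, a difference between colours cannot be told apart from one between single goats.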
